A study of Glycine max with 20 samples.

Results

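In developing soybean seeds of the cultivar DN47, 150 genes were selected on their level at 50 days after flowering (DAF). For each gene the mean RPKM of both DN47 libraries was taken at every stage, where RPKM is the number of reads per kilobase of gene length, scaled to the total count of the library. Genes with at least 20 RPKM at 50 DAF were kept, and the members were chosen by the ratio of the 50 DAF mean to the largest mean of the other 4 stages plus 1 RPKM. The 150 members were the top of 2606 genes that reached 20 RPKM, of 54174 genes with GLYMA identifiers and 57274 genes in all. The ratio was 15.7 for the first gene, had a median of 1.48, and was 1.20 for the last, and 72, 29, 10, and 2 members had a ratio above 1.5, 2, 3, and 5. A label of genes specific to 50 DAF was therefore not borne out for most of them, and they are called here the genes highest at 50 DAF in DN47. Because the DN47 values chose the genes, their DN47 levels and their differences between the lines are descriptions with no test, and tests were made only among the libraries of the second line.

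The second line, cgy-2-NIL, is a near-isogenic line made by backcrossing into DN47, with the cgy-2 allele, under which seeds lack the β-conglycinin α-subunit. DN47 is its recurrent parent. Seeds of both lines, taken with their cotyledons and seed coats together, were pooled at 5 ages (18, 25, 35, 50, or 55 DAF), with 2 biological replicates for each of the 10 groups. The line carries donor sequence with the allele on chromosome 20, so the allele and what is linked to it cannot be told apart. Total counts were between 20981632 and 30555808 in cgy-2-NIL and between 18492047 and 24916180 in DN47. The study lists GLYMA20G28650 and GLYMA20G28660 as genes of the α-subunit. At 50 DAF, GLYMA20G28650 had 5.82 and 3.38 RPKM in the cgy-2-NIL libraries, against 42.5 and 32.4 in DN47. GLYMA20G28660 had 0.0711 and 0.094 RPKM in cgy-2-NIL at that stage, against 39.2 and 31.7 in DN47. Both genes thus followed the labels of the lines.

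Soybean seeds fill by making storage proteins in the cotyledons, chiefly glycinin and β-conglycinin, which are deposited in protein storage vacuoles. The transcripts of these proteins accumulate during filling and decline as the seed matures and dries. Glycinin is built from subunits encoded by the Gy genes, and β-conglycinin from α, α′, and β subunits, and both families belong to the cupins. Of 18 cupin genes that the study lists, 6 were members, namely the glycinin genes Gy1, Gy2, Gy3, and Gy5 and both listed genes of the β-subunit. The other members named by the study are the gibberellin-regulated protein genes GLYMA06G02690 and GLYMA04G02660. The identifiers of the other members had no match in the annotation used here, so they are described by their values alone.

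The members took a large share of all counts at 50 DAF in both lines. In cgy-2-NIL, the share was 0.255% and 0.239% of the library count at 18 DAF, then 1.84% and 1.16% at 25 DAF, then 11.9% and 16.7% at 35 DAF, then 30.9% and 21.03% at 50 DAF, and then 2.18% and 2.07% at 55 DAF. In DN47, it was 0.289% and 0.336%, 4.18% and 2.31%, 18.9% and 16.7%, 30.8% and 26.3%, and 10.1% and 9.34% at the same stages. Both 50 DAF libraries were above all others of their line, and the share at 55 DAF was lower in both cgy-2-NIL libraries than in both DN47 libraries. In DN47, a mean share highest at 50 DAF follows from the choice of the genes. Most of it came from the 10 most abundant members, which held 27.3% and 17.7% of the counts at 50 DAF in cgy-2-NIL and 27.3% and 22.6% in DN47. The other 140 held 3.59% and 3.33% in cgy-2-NIL and 3.46% and 3.74% in DN47. In DN47 at 50 DAF, 16 members were at 1000 RPKM or more, 29 between 100 and 1000 RPKM, and 105 below 100 RPKM.

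**Figure D1:**
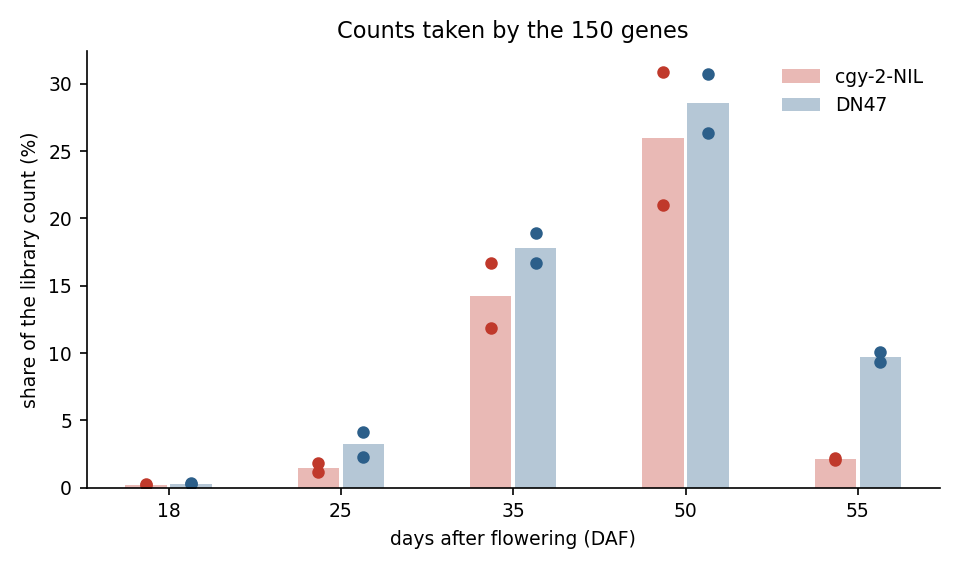
Share of each library's count (%) that fell in the 150 genes, by stage in days after flowering, with cgy-2-NIL left of DN47 at each stage. Points are libraries and bars are means of 2. The share was highest at 50 DAF in both lines, which in DN47 follows from the choice of the genes. At 55 DAF it was 2.18% and 2.07% in cgy-2-NIL, against 10.1% and 9.34% in DN47.

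In the median member, the level in cgy-2-NIL was 3.77 and 3.81 RPKM at 18 DAF, then 16.9 and 14.7 at 25 DAF, then 36.7 and 30.3 at 35 DAF, then 62.2 and 57.6 at 50 DAF, and then 17.5 and 16.5 at 55 DAF. The median over the 2606 genes of at least 20 RPKM was 35.2 and 36.5 RPKM in the same line at 50 DAF and did not peak there, with 55.2 and 54.7 RPKM at 25 DAF. In cgy-2-NIL, which the selection did not use, 120 of the 150 members had their highest mean at 50 DAF, where 12.0% of the 2606 genes did. The others had it at 55 DAF (9 members), 35 DAF (14), or 25 DAF (7). Both 50 DAF libraries of cgy-2-NIL were above the 8 other libraries of the line for 91 members, and for 7.75% of the 2606 genes. In DN47, whose values chose the genes, this was so for 136 members. In bulk seeds, fewer cells of a type and less RNA per cell cannot be told apart.

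All 150 members were tested in cgy-2-NIL with edgeR's quasi-likelihood test, and a gene was called at a Benjamini-Hochberg adjusted p under 0.05 over 39979 genes. Against 18 DAF, all 150 members were higher at 50 DAF, with a median log2 fold change of 4.88 (-0.04 over all genes tested). Of all genes tested, 32.0% were called higher, and of the genes of at least 20 RPKM 59.1%. At 18 DAF, 15 members were at or under 3 counts in both cgy-2-NIL libraries, and the filter on low counts kept these on other stages alone. Requiring at least 10 counts in every cgy-2-NIL library left 113 members called higher against 18 DAF. That filter left 104 against 25 DAF, 76 against 35 DAF, and 97 against 55 DAF. Against 25 DAF, 140 members were higher at 50 DAF and none was lower, with a median of 2.95, beside 30.5% of all genes tested and 50.6% of the genes of at least 20 RPKM. Against 35 DAF, 102 members were higher and none was lower, with a median of 1.15, beside 22.4% and 35.0%. The 48 members without a call against 35 DAF include the 4 glycinin genes. Against 55 DAF, 128 members were higher and 6 lower, with a median of 2.12 (0.09 over all genes tested), beside 32.2% and 35.1% called higher. Over the tested genes of at least 20 RPKM, the median log2 fold changes were 0.72, 0.43, 0.09, and -0.02 against 18, 25, 35, and 55 DAF.

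Higher at 50 DAF than at every other stage in cgy-2-NIL were 90 members, while 9.68% of the tested genes of at least 20 RPKM were. A further 44 members were higher than at 3 of the stages, 12 than at 2, and 4 than at 1. Requiring also a log2 fold change above 2 lowered the count against 35 DAF to 31 members and that against 55 DAF to 79. The counts are scaled in edgeR by TMM factors, which are higher for the young seeds. Taken over all 20 libraries, such factors raised the log2 change at 50 DAF in cgy-2-NIL relative to RPKM. The rise was 1.18 against 18 DAF, 1.04 against 25 DAF, 0.45 against 35 DAF, and 0.02 against 55 DAF. The test itself used factors from the 10 cgy-2-NIL libraries alone, for which the rise was not computed. Each p-value weighs the change against the spread between replicate pools of seeds. That spread was estimated for each gene over all 5 stages of cgy-2-NIL, with 2 pools per stage.

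**Figure D2:**
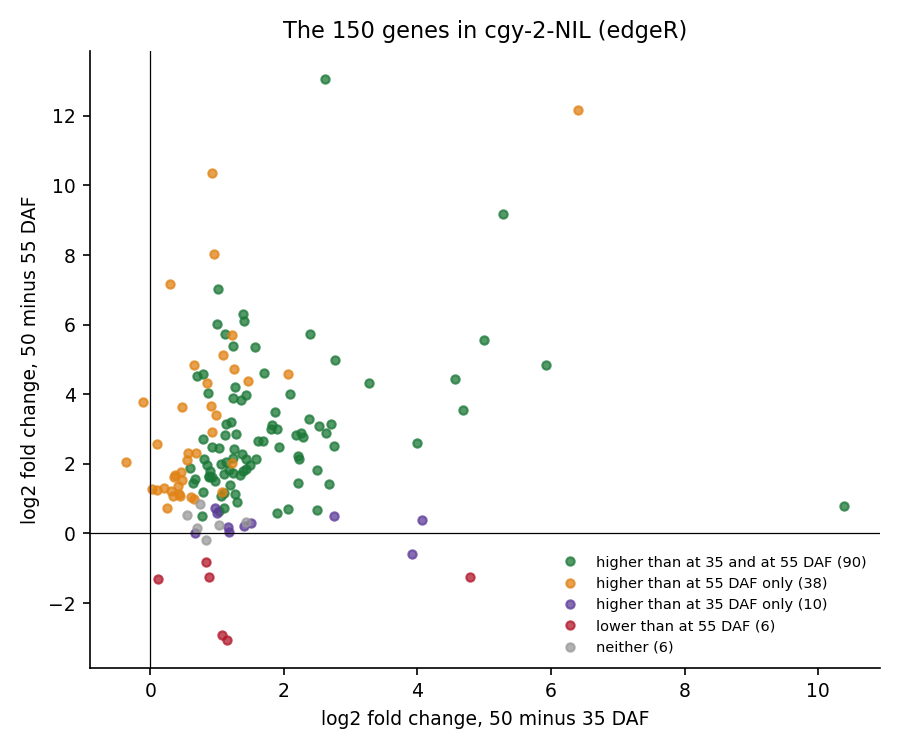
Log2 fold change of the 150 genes in cgy-2-NIL (edgeR), 50 minus 35 DAF on the horizontal axis and 50 minus 55 DAF on the vertical axis, 1 point per gene, colored by the calls at an adjusted p under 0.05. A group of 90 genes was higher at 50 DAF than at both neighboring stages, 38 were higher than at 55 DAF only, and 6 were lower than at 55 DAF.

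The glycinin genes Gy1 and Gy2 were the most abundant members, and the difference between 50 and 35 DAF in cgy-2-NIL did not pass the test for any of the 4 glycinin members. Gy1 (GLYMA03G32030) had 0.0181 and 0 RPKM at 18 DAF, then 2389 and 651 at 25 DAF, then 21254 and 31511 at 35 DAF, then 56799 and 36768 at 50 DAF, and then 1826 and 1791 at 55 DAF in cgy-2-NIL. At the same stages, DN47 had 0.0221 and 0.155, 9288 and 4050, 37904 and 33830, 55549 and 48699, and 17716 and 15281 RPKM. The lines overlapped at 50 DAF, and at 55 DAF both cgy-2-NIL libraries were far below both DN47 libraries. The log2 fold change of Gy1 in cgy-2-NIL was 1.26 ± 0.65 (SE, adjusted p = 0.137) against 35 DAF and 4.72 ± 0.75 (adjusted p = 0.000422) against 55 DAF. At 18 DAF the gene was at or under 3 counts in each cgy-2-NIL library, and its level at 50 DAF was at least 861917-fold higher, computed against 3 counts in each library.

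Gy2 (GLYMA03G32020), whose identifier is next to that of Gy1 on chromosome 3, had 40299 and 27593 RPKM at 50 DAF in cgy-2-NIL and 38371 and 34144 in DN47. Gy5 (GLYMA13G18450) had 26075 and 15880 RPKM in cgy-2-NIL and 26018 and 18982 in DN47 at that stage. Gy3 (GLYMA19G34780) had 10374 and 3192 RPKM in cgy-2-NIL and 9025 and 3883 in DN47, so that replicate 1 was above replicate 2 in both lines by more than 2-fold. In cgy-2-NIL the log2 fold changes against 35 DAF were 1.47, 1.23, and 0.95 for Gy2, Gy5, and Gy3 (adjusted p = 0.0674, 0.127, and 0.267). Gy2 passed in 4 of 16 alternative fits, namely without either 25 DAF library of cgy-2-NIL (adjusted p = 0.0215 and 0.0217), with limma-voom (0.0374), and in the fit on all 20 libraries (0.0232). Gy5 passed with the DESeq2 Wald test (adjusted p = 0.0497), and Gy1 and Gy3 passed in none of them. All 3 were higher than at 55 DAF, by 4.37, 5.70, and 8.03 on the log2 scale. Gy4 (GLYMA10G04280) had the same course with a DN47 ratio of 1.17, which placed it at rank 162, outside the list.

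The β-subunit genes were higher at 50 than at 35 DAF in cgy-2-NIL, beyond the spread of the replicates. GLYMA20G28640 had 0.0588 and 0.0983 RPKM at 18 DAF, then 0.289 and 0.159 at 25 DAF, then 595 and 406 at 35 DAF, then 1261 and 1256 at 50 DAF, and then 170 and 146 at 55 DAF in cgy-2-NIL. The DN47 libraries had, in the same order of stages, 0.12 and 0.0241, 4.22 and 2.37, 280 and 463, 1087 and 1096, and 697 and 517 RPKM. Its log2 fold change in cgy-2-NIL was 1.80 ± 0.23 (SE, adjusted p = 0.000243) against 35 DAF and 3.02 ± 0.24 (adjusted p = 7.05e-06) against 55 DAF. For GLYMA20G28460, the other listed β-subunit gene, the levels at 50 DAF were 1031 and 1133 RPKM in cgy-2-NIL and 655 and 782 RPKM in DN47, with no overlap between the lines. Its log2 fold change in cgy-2-NIL was 2.37 ± 0.24 (adjusted p = 0.000115) against 35 DAF. At 55 DAF both β-subunit genes were lower in the cgy-2-NIL libraries than in the DN47 libraries, and GLYMA20G28460 had 113 and 113 RPKM in cgy-2-NIL, against 554 and 463 RPKM in DN47. These genes are similar in sequence to each other, so reads may have been divided between them. Like the α-subunit genes, both lie on chromosome 20, the chromosome on which cgy-2-NIL carries donor sequence. GLYMA20G28640 is next in number to GLYMA20G28650. Whether the β-subunit genes of cgy-2-NIL are donor copies was not tested.

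Of the 18 cupin genes, 17 were tested, and 4 were higher and 2 lower at 50 than at 35 DAF in cgy-2-NIL. Called higher were 22.4% of all genes tested and 35.0% of the genes of at least 20 RPKM. The 6 member genes included 2 of the higher ones and had a median log2 fold change of 1.36, and the 11 other tested cupins had a median of -0.04. Members were chosen for a high 50 DAF level in the parent DN47, so this contrast is a description with no test. Against 55 DAF, all 6 member genes and 8 of the 11 others were higher, beside 32.2% of all genes tested and 35.1% of the genes of at least 20 RPKM. The α′-subunit gene GLYMA10G39150, which is not a member, averaged 12163 RPKM at 50 DAF in cgy-2-NIL and 12910 in DN47, beside 18999 and 18363 RPKM at 35 DAF in these lines, and with TMM scaling its log2 fold change in cgy-2-NIL was -0.20 (adjusted p = 0.778).

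Among the abundant members without a name, GLYMA13G36400 had the largest DN47 ratio of the 16 at 1000 RPKM or more, 2.27. It had 0.45 and 0.548 RPKM at 18 DAF, then 100.8 and 44.5 at 25 DAF, then 3996 and 6894 at 35 DAF, then 25324 and 17450 at 50 DAF, and then 490 and 330 at 55 DAF in cgy-2-NIL. Across the same stages DN47 had 0.945 and 0.789, 384 and 182, 12474 and 11056, 28495 and 24994, and 6186 and 5872 RPKM. In cgy-2-NIL it was higher at 50 than at 35 DAF by 2.40 ± 0.52 on the log2 scale (SE, adjusted p = 0.0041), a call that was lost without 35 DAF replicate 1 (adjusted p = 0.0502). GLYMA16G33400, at 27253 and 18044 RPKM in cgy-2-NIL and 30167 and 24664 in DN47 at 50 DAF, had a log2 fold change of 0.91 ± 0.46 against 35 DAF (adjusted p = 0.13). GLYMA12G34160, with 5127 and 4343 RPKM in cgy-2-NIL and 5039 and 4100 in DN47, was higher by 1.90 ± 0.54 (adjusted p = 0.019), and GLYMA14G26410, with 2874 and 2073 RPKM in cgy-2-NIL and 3781 and 3740 in DN47, by 1.37 ± 0.45 (adjusted p = 0.029). Both calls were lost without 35 DAF replicate 1 or without either 50 DAF replicate of cgy-2-NIL, with adjusted p-values of 0.0522 to 0.196. GLYMA01G10900 averaged 3102 RPKM in cgy-2-NIL and 3401 in DN47 at 50 DAF, GLYMA06G08290 averaged 3184 and 3120 RPKM in these lines, and neither passed against 35 DAF (adjusted p = 0.094 and 0.08). All 16 members of at least 1000 RPKM had their highest cgy-2-NIL mean at 50 DAF, 8 of them were called against every other stage, and 16 were higher than at 55 DAF, a call that GLYMA06G08290 lost without 55 DAF replicate 1 (adjusted p = 0.07).

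**Figure D3:**
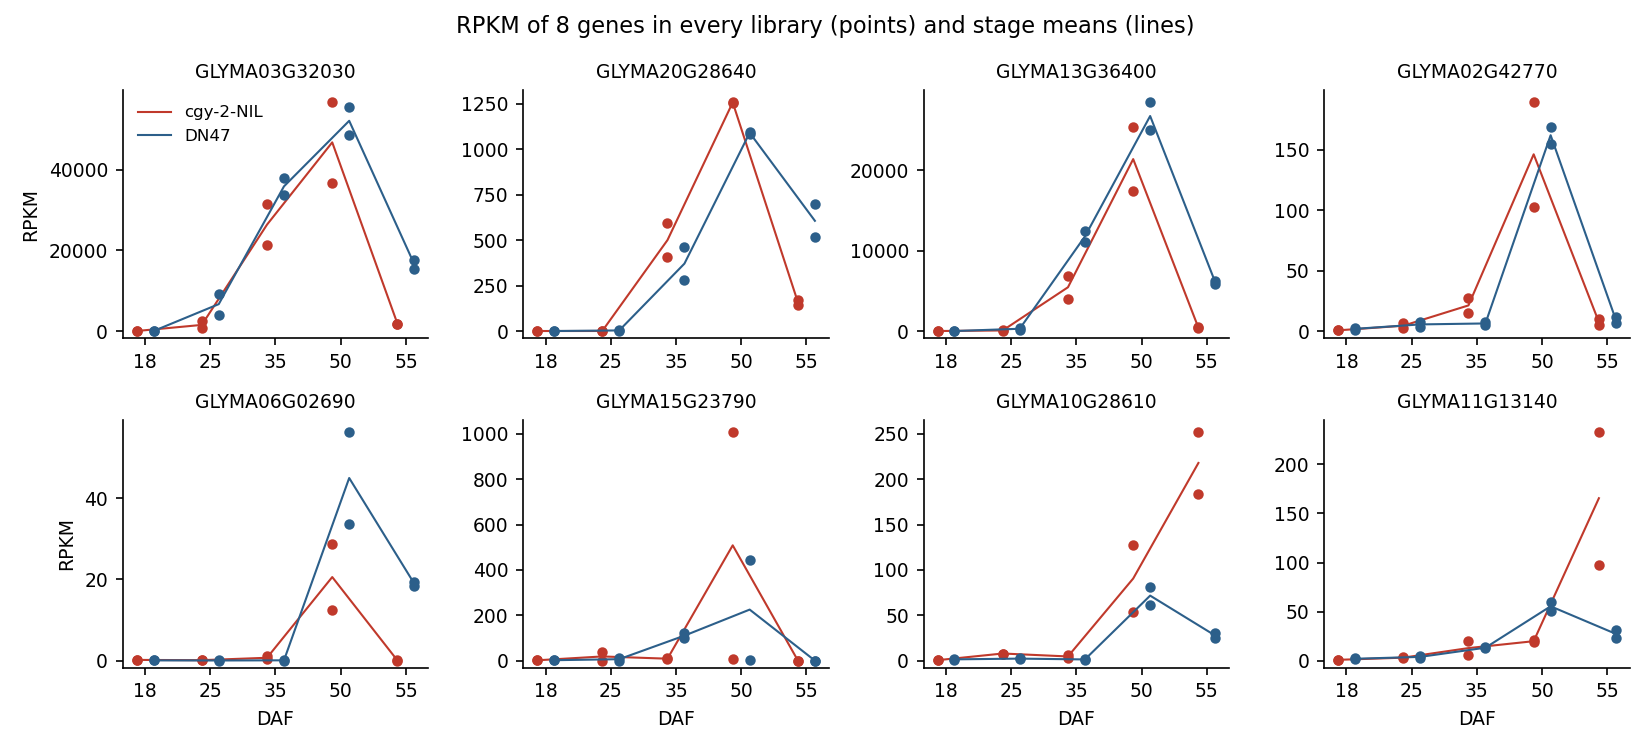
RPKM of 8 genes against days after flowering in cgy-2-NIL (red) and DN47 (blue), with points for libraries and lines for means of 2, each panel with its own linear axis. A highest mean at 50 DAF in DN47 follows from the choice of the genes. GLYMA03G32030 (Gy1) and GLYMA20G28640 (β-subunit) had their highest mean at 50 DAF in both lines and lower means at 55 DAF in cgy-2-NIL than in DN47, GLYMA15G23790 was high in replicate 1 only (1011 RPKM in cgy-2-NIL and 446 in DN47), and GLYMA10G28610 and GLYMA11G13140 were highest at 55 DAF in cgy-2-NIL and at 50 DAF in DN47.

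The first gene of the ranking, GLYMA02G42770, was less abundant than the storage protein genes and was higher at 50 DAF than at every other stage in cgy-2-NIL. It had 0.637 and 0.497 RPKM at 18 DAF, then 2.35 and 6.41 at 25 DAF, then 27.4 and 15.0 at 35 DAF, then 190 and 103 at 50 DAF, and then 4.84 and 9.93 at 55 DAF in cgy-2-NIL. For DN47, the values in the same order were 0.998 and 2.61, 7.83 and 3.13, 4.99 and 7.57, 155 and 169, and 11.7 and 6.96 RPKM. Its level in cgy-2-NIL was higher at 50 DAF by 3.28 ± 0.50 on the log2 scale against 35 DAF (SE, adjusted p = 0.00089) and by 4.33 ± 0.54 against 55 DAF (adjusted p = 0.00014). Its ratio of 50 DAF to the next stage was 6.59 in cgy-2-NIL and 15.7 in DN47. The neighboring identifiers GLYMA02G42800 and GLYMA02G42805 were also members, with 51.8 and 47.1 RPKM and 26.3 and 25.9 RPKM in cgy-2-NIL, against 43.2 and 51.4 RPKM and 21.1 and 26.6 RPKM in DN47 at 50 DAF. Both were higher than at every other stage in cgy-2-NIL, by 1.83 and 1.87 on the log2 scale against 35 DAF (adjusted p = 1.3e-05 and 0.0001).

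Of the 10 members ranked highest, 4 were called against all other stages in cgy-2-NIL besides GLYMA02G42770. GLYMA13G03980 had 24.5 and 30.96 RPKM at 50 DAF in cgy-2-NIL and 19.7 and 25.0 in DN47, and its log2 fold changes in cgy-2-NIL were 4.69 ± 0.38 against 35 DAF and 3.55 ± 0.35 against 55 DAF (adjusted p = 2.3e-05 and 2.4e-05). GLYMA11G37850 had 22.0 and 9.7 RPKM in cgy-2-NIL and 28.5 and 23.3 in DN47, and at most 0.889 RPKM at any other stage in cgy-2-NIL but 4.07 and 5.63 RPKM at 55 DAF in DN47. GLYMA20G19630 had 102 and 66.7 RPKM in cgy-2-NIL and 49.0 and 122 in DN47, and was at 0 in both cgy-2-NIL libraries at 18 DAF. GLYMA03G36790 had 33.2 and 9.56 RPKM in cgy-2-NIL and 24.4 and 30.9 in DN47, and at 55 DAF 0 and 0 RPKM in cgy-2-NIL and 0.289 and 0.114 in DN47. Its level in cgy-2-NIL was at least 205-fold higher at 50 than at 55 DAF, computed against 3 counts in each library.

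The other 5 of these 10 lacked at least 1 call. GLYMA08G20810, second in the ranking, had 17.8 and 2.34 RPKM in cgy-2-NIL and 50.5 and 10.3 in DN47 at 50 DAF, beside 13.1 and 10.7 RPKM in cgy-2-NIL at 25 DAF. Its only calls in cgy-2-NIL were against 18 and 55 DAF, and the call against 55 DAF was kept in 11 of 16 alternative fits. Without 50 DAF replicate 1 the log2 fold change against 55 DAF was 2.45, beside 4.57 with all libraries, and the call was lost. GLYMA13G32070 had 14.0 and 6.6 RPKM in cgy-2-NIL and 31.6 and 25.7 in DN47, and in cgy-2-NIL was called against 18 DAF alone. GLYMA05G08400 had 121 and 171 RPKM in cgy-2-NIL and 68.6 and 67.1 in DN47 at 50 DAF, and its 55 DAF libraries had 55.1 and 150 RPKM in cgy-2-NIL and 21.7 and 18.7 in DN47, with no call between these stages in cgy-2-NIL. For GLYMA08G01601 the log2 fold change was 0.73 ± 0.35 against 55 DAF (adjusted p = 0.1), and its call against 35 DAF (0.97 ± 0.35, adjusted p = 0.0442) was kept in 5 of 17 alternative fits. For GLYMA02G18260 it was 1.23 ± 0.47 against 35 DAF (adjusted p = 0.06), which passed in 6 of 17 alternative fits, and the call against 55 DAF was lost without 50 DAF replicate 1 or 55 DAF replicate 1 (adjusted p = 0.0769 and 0.0504).

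The gibberellin-regulated protein genes are members of a family of small secreted proteins named for their induction by the hormone. GLYMA06G02690 had 28.7 and 12.5 RPKM at 50 DAF in cgy-2-NIL, against 56.4 and 33.5 in DN47. At 55 DAF it had 0.0648 and 0 RPKM in cgy-2-NIL and 18.4 and 19.5 in DN47. At 18, 25, and 35 DAF no library of either line was above 1.06 RPKM. In cgy-2-NIL it was higher at 50 DAF by 5.27 ± 0.55 on the log2 scale against 35 DAF (SE, adjusted p = 8.8e-05) and at least 108-fold higher than at 55 DAF, computed against 3 counts in each library. GLYMA04G02660 had 22.9 and 23.3 RPKM at 25 DAF, then 33.0 and 26.2 at 35 DAF, 65.6 and 15.3 at 50 DAF, and then 0 and 0.0536 at 55 DAF in cgy-2-NIL. At these 4 stages DN47 had 54.0 and 41.7, 13.03 and 24.2, 96.9 and 69.8, and 8.23 and 6.88 RPKM. Its 50 DAF replicates in cgy-2-NIL lay on either side of the 35 DAF values, and the log2 fold change against 35 DAF was 0.92 ± 0.53 (adjusted p = 0.18), with -0.51 without 50 DAF replicate 1 and 1.63 without replicate 2.

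Several members had a larger ratio of 50 DAF to the next stage in cgy-2-NIL than in DN47, a difference that was not tested. GLYMA04G33350 had 49.8 and 58.4 RPKM at 50 DAF in cgy-2-NIL and 32.5 and 32.9 in DN47, and at 55 DAF 2.29 and 2.80 RPKM in cgy-2-NIL and 14.2 and 16.3 in DN47. Its log2 fold changes in cgy-2-NIL were 4.57 ± 0.16 against 35 DAF and 4.42 ± 0.16 against 55 DAF (SE, adjusted p = 6.3e-07 and 6.9e-07). GLYMA11G12650 had 85.1 and 50.5 RPKM in cgy-2-NIL and 48.5 and 69.1 in DN47 at 50 DAF, and 2.09 and 0.845 RPKM at 55 DAF in cgy-2-NIL against 28.9 and 25.1 in DN47. In both genes the ratio of 50 DAF to the next stage was above 13 in cgy-2-NIL, at 13.1 and 17.1, and near 2 in DN47, at 2.01 and 2.10. GLYMA15G23790 had the largest ratio in cgy-2-NIL, 26.2, but it rested on 1 library. It had 1011 and 6.6 RPKM at 50 DAF in cgy-2-NIL and 446 and 4.23 in DN47. Its call against 55 DAF in cgy-2-NIL was kept in 9 of 16 alternative fits. Without 50 DAF replicate 1 the log2 fold change was 5.86, beside 12.17 with all libraries, and the call was lost.

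A further member, GLYMA02G42627, was chosen for mention after its values were seen. It was at 0 in both cgy-2-NIL libraries at 18 and 25 DAF, and had 0.55 and 0.642 RPKM at 35 DAF, then 412 and 777 at 50 DAF, and then 295 and 393 at 55 DAF. In DN47 it had 2.84 and 2.36 RPKM at 35 DAF, then 358 and 546 at 50 DAF, and then 399 and 320 at 55 DAF. Its log2 fold change in cgy-2-NIL was 10.38 ± 0.48 (SE, adjusted p = 9.3e-06) against 35 DAF and 0.80 ± 0.29 (adjusted p = 0.046) against 55 DAF, and the second call was kept in 4 of 16 alternative fits.

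In cgy-2-NIL, 6 members were called lower at 50 than at 55 DAF, the reverse of the order that chose them in DN47. The share of all genes tested that was called lower is not given here. By libraries without overlap, 145 members and 1006 genes of at least 20 RPKM had 50 above 55 DAF in DN47. The order was reversed in cgy-2-NIL for 4.14% of these members and 8.95% of these genes. GLYMA11G13140 had 20.5 and 19.1 RPKM at 50 DAF in cgy-2-NIL, against 97.6 and 234 RPKM at 55 DAF. In DN47 it had 50.7 and 60.1 RPKM at 50 DAF, against 31.4 and 23.1 RPKM at 55 DAF. Its log2 fold change in cgy-2-NIL was -3.05 ± 0.57 (SE, adjusted p = 0.0017). GLYMA08G20820, whose identifier is next to that of GLYMA08G20810, had 9.8 and 12.1 RPKM at 50 DAF in cgy-2-NIL, against 86.7 and 81.4 RPKM at 55 DAF. In DN47 it had 52.6 and 24.3 RPKM at 50 DAF, against 23.4 and 33.8 RPKM at 55 DAF. Its log2 fold change was -2.92 ± 0.51 (adjusted p = 0.0011), and its DN47 libraries overlapped between the stages.

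GLYMA10G28610 had 6.14 and 3.03 RPKM at 35 DAF, then 53.6 and 128 at 50 DAF, and then 253 and 183 at 55 DAF in cgy-2-NIL, and 0.711 and 1.89, 81.6 and 61.8, and 24.9 and 30.2 RPKM at the same stages in DN47. It was therefore higher at 50 than at 35 DAF in cgy-2-NIL (log2 fold change 4.78 ± 0.42, adjusted p = 4e-05) and lower than at 55 DAF (-1.25 ± 0.35, adjusted p = 0.013), although the second call was lost without 55 DAF replicate 1 (adjusted p = 0.0814). GLYMA14G09910 and GLYMA17G11500 were lower at 50 than at 55 DAF, with log2 fold changes of -1.32 ± 0.20 and -0.83 ± 0.19 (adjusted p = 0.00031 and 0.0043). For GLYMA12G34701 the value was -1.24 ± 0.43 (adjusted p = 0.032), and that call was lost when any of 5 single libraries was left out, with adjusted p-values of 0.0511 to 0.233.

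The members differed in the stage that came second in DN47. For 67 members it was 55 DAF, for 55 it was 35 DAF, for 20 it was 25 DAF, and for 8 it was 18 DAF. Of the 67 members with 55 DAF second, 53 were called higher at 50 than at 55 DAF in cgy-2-NIL, 9 had no call, and 5 were lower. Of the 55 members with 35 DAF second, 33 were called higher at 50 than at 35 DAF in cgy-2-NIL and 22 had no call. Of the 20 with 25 DAF second, 15 were called higher than at that stage, and all 8 with 18 DAF second were. Among all tested genes of at least 20 RPKM, 35.1%, 35.0%, 50.6%, and 59.1% were called higher against 55, 35, 25, and 18 DAF. When the same rule was applied to the cgy-2-NIL libraries, 2751 genes reached 20 RPKM and 68 of the 150 members (45.3%) were among the top 150, where the last gene had a ratio of 1.45. The median ratio of the members in cgy-2-NIL was 1.44, and 117, 65, 32, 18, and 8 members had a ratio above 1, 1.5, 2, 3, and 5.

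**Figure D4:**
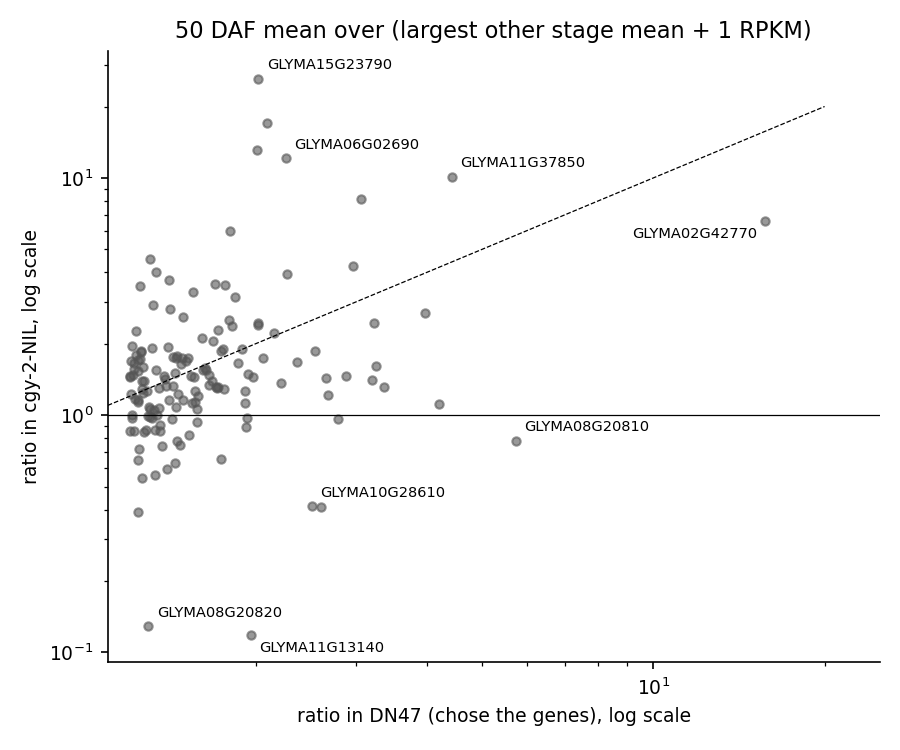
Ratio of the 50 DAF mean to the largest other stage mean plus 1 RPKM in DN47 (horizontal, the values that chose the genes) and in cgy-2-NIL (vertical), both on log scales, 1 point per gene, with a dashed line of equal ratios and a solid line at 1. Of the 150 genes, 117 lie above 1 in cgy-2-NIL, the highest being GLYMA15G23790 at 26.2 and the lowest GLYMA11G13140 at 0.119.

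At 50 DAF the members differed between the lines in both directions, with 77 of the log2 ratios of cgy-2-NIL to DN47 above 0 and 73 below. Over the 2606 genes of at least 20 RPKM, 1143 were above 0 and 1463 below. The median member had 60.8 RPKM in cgy-2-NIL and 59.1 RPKM in DN47, and the median log2 ratio of cgy-2-NIL to DN47, taken on mean RPKM plus 1, was 0.02, against -0.05 over the 2606 genes of at least 20 RPKM. Both cgy-2-NIL libraries were above both DN47 libraries for 36 members and below them for 39, which compares with 21.6% and 33.8% of the 2606 genes, and the lines overlapped for 75 members. The members with the largest ratios were GLYMA06G06080, with 40.1 and 66.6 RPKM in cgy-2-NIL and 18.6 and 21.6 in DN47, GLYMA15G23790, in which the lines overlapped, GLYMA05G08400, GLYMA15G30610, and GLYMA14G15015. GLYMA14G15015 had 178 and 174 RPKM in cgy-2-NIL and 95.4 and 87.1 in DN47. The members with the smallest were GLYMA18G52250, with 13.3 and 7.48 RPKM in cgy-2-NIL and 49.8 and 63.8 in DN47, GLYMA01G38905, with 10.5 and 3.66 in cgy-2-NIL and 28.5 and 31.9 in DN47, GLYMA08G20820, GLYMA16G23191, and GLYMA08G20810.

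At 35 DAF the members stood to the lines much as the 2606 genes did. At 55 DAF, 112 of the 150 members and 1458 of the 2606 genes had a mean in cgy-2-NIL below that of DN47. At 35 DAF both cgy-2-NIL libraries were above both DN47 libraries for 70 members and below for 29, beside 50.0% and 18.3% of the 2606 genes, and the median log2 ratio was 0.24 for the members and 0.18 for the 2606 genes. At 55 DAF both cgy-2-NIL libraries were above for 27 members and below for 102, beside 34.8% and 48.3%, and the median log2 ratio was -0.92 for the members and -0.10 for the 2606 genes. All 16 members of at least 1000 RPKM were below DN47 at 55 DAF, with a median log2 ratio of -2.62. The medians for the members of 100 to 1000 RPKM and of less than 100 RPKM were -0.62 and -0.82. With TMM scaling, an alternative chosen after seeing the data, the median log2 ratio of the members was 0.06 at 35 DAF, -0.05 at 50 DAF, and -0.77 at 55 DAF, and that of the 2606 genes was 0.02, -0.12, and 0.07, so that the sign turned for the members at 50 DAF and for the 2606 genes at 55 DAF.

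**Figure D5:**
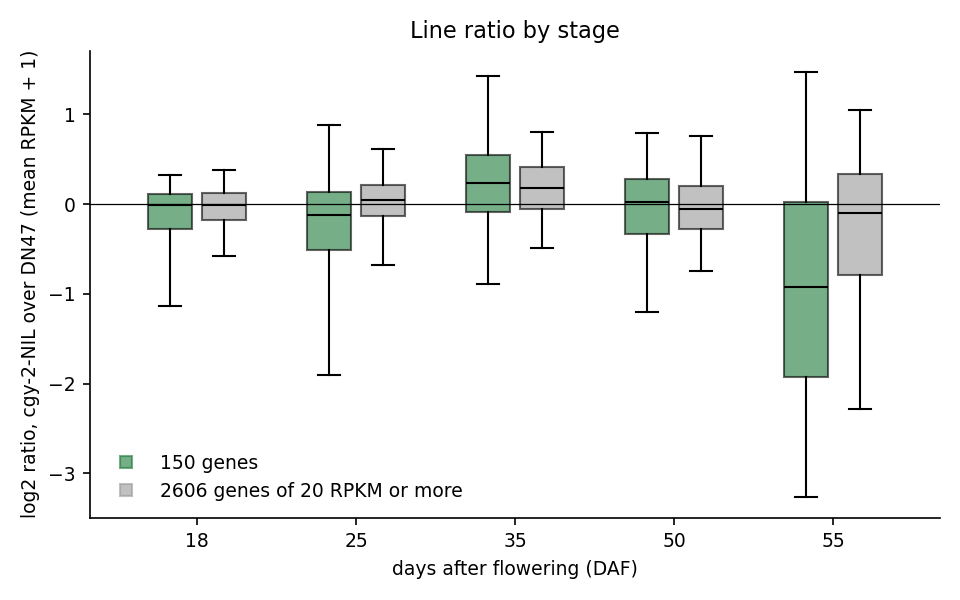
Log2 ratio of cgy-2-NIL to DN47 (mean RPKM plus 1) by days after flowering, for the 150 genes (green, left) and the 2606 genes of at least 20 RPKM (gray, right), with boxes for quartiles, a line for the median, and whiskers for the 5th and 95th percentiles. The median of the 150 genes was 0.02 at 50 DAF and -0.92 at 55 DAF, where that of the 2606 genes was -0.10.

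Replicate libraries of 50 DAF differed for some members. The replicates were more than 2-fold apart for 19 members in cgy-2-NIL and 8 in DN47, and replicate 1 was above replicate 2 for 105 members in cgy-2-NIL and 53 in DN47. In GLYMA15G23790, GLYMA08G20810, and Gy3, replicate 1 was more than 2-fold above replicate 2 in both lines. Leaving out 50 DAF replicate 1 or 2 of DN47 kept 130 or 131 members in the top 150.

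The members lay on all 20 chromosomes. Chromosome 13 held the most, 14 members or 9.33%, and 7.48% of the 2606 genes. Genes on 1 chromosome whose identifier numbers lay within 100 of the next formed 10 local groups with 21 members, among them Gy1 with Gy2, the 3 genes from GLYMA02G42770, GLYMA04G05440 with GLYMA04G05500, and GLYMA08G20810 with GLYMA08G20820. The median gene length was 1363 bases in the members and 1322 bases in the 2606 genes. The limit of the list cut a continuous ranking. The last members were GLYMA08G16850, GLYMA06G23340, and GLYMA07G37030, with ratios of 1.203, 1.203, and 1.202, and the first genes outside were GLYMA10G37620, GLYMA20G17990, and GLYMA15G16810, with 1.201, 1.199, and 1.196. In all, 240 of the 2606 genes had a ratio above 1.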

How the data were processed

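RNA-seq of 20 seed libraries (2 lines, 5 stages, 2 biological replicates) was used. The authors mapped cleaned reads to the soybean genome, counted reads per gene with HTSeq, and deposited whole-number counts without normalization. The deposited RPKM values equal count over gene length and library total, so the RPKM deposited by the authors carry no further scaling across libraries. The aligner and strand setting are not given in the sources used here.

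Members and gene lists were chosen with earlier results of these data known. Counts of the 10 cgy-2-NIL libraries were filtered with filterByExpr, scaled by TMM, and tested with edgeR 4.0.16 (R 4.3.3) quasi-likelihood tests on 5 stage means, contrasting 50 DAF with each other stage. Benjamini-Hochberg adjustment ran over 39979 genes with a threshold of 0.05, and the fit was tested on simulated data. Alternatives used DESeq2 1.42.0, limma 3.58.1, other filters, thresholds, and scalings, a replicate block, and each library left out. The floor was 3 counts or fewer in every library of a group. Such genes numbered 15, 2, 0, and 3 members at 18, 25, 35, and 55 DAF in cgy-2-NIL, and setting them at their bound left the medians of the log2 fold changes at 4.88, 2.95, 1.15, and 2.12.

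Named genes were the 10 ranked highest, the 10 most abundant, the 5 largest and smallest by cgy-2-NIL ratio and by line ratio at 50 DAF, the 3 on either side of the limit, the local groups, and those the study names. Of 59048 annotated reference genes, 0 matched an identifier of the tables, so annotation lists and promoter motifs fixed in the plan were not applied, and chromosomes were read from identifiers.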

Additional observations from a re-analysis of the deposited data

Results flagged for a closer look

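In 12 of 150 members (8%), both libraries of 50 DAF lay below both libraries of another stage in cgy-2-NIL and above them in DN47. The DN47 side follows from the choice of the genes, and the difference between the lines was not tested. The same pattern was present in 167 of the 2606 genes of at least 20 RPKM (6.41%). These 2 shares have unlike bases, since fewer of the 2606 genes had 50 DAF above the other stage in DN47. Counting only genes with 50 DAF above 55 DAF in DN47, it held for 6 of 145 members (4.14%) and 90 of 1006 genes (8.95%). In the same way it held for 3 of 144 members (2.08%) and 29 of 803 genes (3.61%) against 25 DAF. Against 35 DAF it held for 4 of 143 members (2.80%) and 34 of 850 genes (4%). Against 25 DAF, the ratio of 50 DAF to the other stage in cgy-2-NIL was 0.75 for GLYMA18G01330, 0.64 for GLYMA09G35760, and 0.673 for GLYMA05G22070. Against 35 DAF, it was 0.788 for GLYMA05G04450, 0.872 for GLYMA06G12780, 0.563 for GLYMA20G36520, and 0.792 for GLYMA14G09910. Against 55 DAF, it was 0.419 for GLYMA12G34701, 0.415 for GLYMA10G28610, 0.12 for GLYMA11G13140, 0.662 for GLYMA13G40293, 0.556 for GLYMA17G11500, and 0.395 for GLYMA14G09910. With RPKM divided by the TMM factors, an alternative chosen after seeing the data, the pattern was kept for all 6 genes against 55 DAF, for GLYMA20G36520 against 35 DAF (0.779), and for none against 25 DAF.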

How the results depend on the processing

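Counts of members higher at 50 DAF in cgy-2-NIL, those chosen again by the rule, and those apart between the lines at 50 DAF stayed within 1.5 times their value under all alternatives but 3. A log2 fold change above 2 left 31 of 102 members against 35 DAF and 79 of 128 against 55 DAF. A minimum of 50 RPKM kept 88 of the 150 members in DN47, since members with a lower 50 DAF mean could not enter. With each cgy-2-NIL library left out, the counts were 88 to 106 against 35 DAF and 117 to 127 against 55 DAF, and the count higher than all other stages, a result added after seeing the data, was 70 to 92. The cgy-2-NIL list held 47 members without 50 DAF replicate 1 and 79 without replicate 2. RPKM divided by the TMM factors kept 107 of the 150 members in DN47 and gave 140 highest at 50 DAF in cgy-2-NIL. With the replicate block the counts were 150, 144, 107, and 128 against 18, 25, 35, and 55 DAF. Over the genes tested, the deviations of same-numbered cgy-2-NIL libraries from their stage means correlated between -0.0377 and 0.0817 across stages. Same-numbered libraries were not compared in this way in DN47 or between the lines. Depth limits members at the 3-count floor, whose fold changes are lower bounds.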
